A study of Mus musculus with 23 samples.

Results

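The 10 circadian clock genes Per1, Per2, Per3, Arntl, Clock, Nr1d1, Nr1d2, Dbp, Tef, and Hlf were followed in mouse bone, chosen by gene symbol among 17644 genes with TPM values and matched by gene ID to the counts. All 10 were found, and all 10 were among the 14364 genes that had enough counts to be tested. RNA had been sequenced from marrow-depleted femur and tibia of 23 female mice at 11 weeks of age, 1 library per mouse. WT Control (n = 5) and WT T1D (n = 6) mice were C57BL6/N wild-types, and KO Control (n = 6) and KO T1D (n = 6) mice were labelled as carrying a global deletion of Sarm1, an NADase best known for its part in axon degeneration. T1D was induced at 8 weeks of age with streptozotocin at 100 mg/kg, a toxin of the insulin-producing beta cells, and lasted 3 weeks, while Control mice received saline. WT mice were littermates of the knockouts or purchased mice of the same background, and which mouse was which is not given in the sources used here. The hour of tissue collection is also not given in the sources used here.

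The circadian clock is a feedback loop of transcription factors that runs in nearly every cell, bone cells included. CLOCK pairs with BMAL1, which is encoded by Arntl, and the pair binds E-boxes to switch on the Per and Cry genes, Nr1d1 and Nr1d2 (REV-ERBα and REV-ERBβ), and Dbp. PER and CRY proteins return to the nucleus and block CLOCK and BMAL1, and the REV-ERB receptors repress Arntl through ROR elements. DBP, TEF, and HLF are PAR bZIP factors that carry the rhythm to other genes through D-boxes. RNA of Arntl therefore peaks at about the opposite time of day to that of Nr1d1 and Dbp.

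The letters of these elements were searched for in the members' own promoters, and some members held a match. Windows of 250 bases before to 50 bases after each start site were taken from RefSeq on GRCm38.p6, and 14 windows covered 9 members, with none for Per2. The letters searched, on both strands, were CACGTG for the E-box, CACGTT for the E'-box, TTATGTAA or TTACGTAA for the D-box, and TAGGTCA or TGGGTCA for the ROR element, none of which overlapped another in these windows. Of 32851 windows of all genes, 7.15% held the E-box, 4.685% the E'-box, 1.056% the D-box, and 6.453% the ROR element. The stretches below are those of the members' windows with a match to the letters of an element that another member's protein can bind. Only letters were matched, and binding was not measured. Whether the members held more matches than the shares over all windows was not tested. Matched letters are in capitals, and each stretch is written 5′ to 3′ on the strand of the gene.
Per3, chr4:151044784-151044903, minus strand, D-box: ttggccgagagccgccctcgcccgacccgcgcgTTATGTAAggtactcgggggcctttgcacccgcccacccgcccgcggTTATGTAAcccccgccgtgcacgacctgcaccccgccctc
Arntl, chr7:113207529-113207558, plus strand, ROR element: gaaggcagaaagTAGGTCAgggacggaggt
Per1, chr11:69098726-69098845, plus strand, E-box: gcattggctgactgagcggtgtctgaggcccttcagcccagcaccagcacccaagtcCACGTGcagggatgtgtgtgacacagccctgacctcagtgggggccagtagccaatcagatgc
Nr1d1, chr11:98775378-98775497, minus strand, E'-box: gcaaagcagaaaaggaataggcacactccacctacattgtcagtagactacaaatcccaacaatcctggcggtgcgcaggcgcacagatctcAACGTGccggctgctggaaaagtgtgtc
Tef, chr15:81802489-81802608, plus strand, E-box: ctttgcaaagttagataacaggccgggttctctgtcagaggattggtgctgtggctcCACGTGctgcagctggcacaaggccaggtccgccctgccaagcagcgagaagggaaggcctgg
Tef, chr15:81811219-81811338, plus strand, E-box: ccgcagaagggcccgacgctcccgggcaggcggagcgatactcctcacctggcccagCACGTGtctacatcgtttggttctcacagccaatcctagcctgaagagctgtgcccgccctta

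Per3 held 2 D-boxes, which begin at positions -205 and -158 from the start site. The ROR element of Arntl begins at position 31 after its start site, within the transcribed part. The E-box of Per1 begins at position -166, and the E'-box of Nr1d1, which reads AACGTG on this strand, begins at position -28. Both windows of Tef held an E-box, at positions -127 and -138. No window of Clock, Nr1d2, Dbp, or Hlf held any of these letters, which says nothing of sites outside the windows.

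Before the clock genes were compared, the targeted gene and the tissue were checked. Sarm1 had few reads, and its mean was 1.17 ± 0.40 CPM (TMM-normalized counts scaled to library size, SD) in WT Control and 0.69 ± 0.29 CPM in WT T1D. Its mean was 0.80 ± 0.50 CPM in KO Control and 1.19 ± 0.26 CPM in KO T1D. Sarm1 RNA was thus not lower in both groups labelled KO, a gene-level count does not tell which part of a transcript was read, and genotypes are given here as labelled. Bone markers such as Col1a1 and Bglap were abundant. WT T1D mice A3905 and A3906 stood apart, with summed osteoblast and osteocyte markers of 4383 and 3492 CPM (35820 to 78130 in the other 21 mice), summed erythroid markers of 179800 and 177500 CPM (60340 to 132200), summed neutrophil markers of 37570 and 34090 CPM (18910 to 31070), summed B cell markers of 179.3 and 218.4 CPM (386.7 to 1018), and summed adipocyte markers of 438.3 and 477.9 CPM (102.8 to 217.1). In whole tissue, fewer cells of a type and less RNA per cell cannot be told apart. Mouse IDs fell in the series A17 or A36 to A39, and the A17 series held 1 WT Control mouse, 3 WT T1D mice, and no mouse labelled KO. What the series stands for is not given in the sources used here.

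Per length of transcript, Nr1d1 had the highest mean level of the 10 genes in every group and Hlf the lowest. Mean TPM (transcript abundance scaled for length and library size) of Nr1d1 was 23.98 ± 9.92 (SD) in WT Control and 25.8 ± 8.75 in WT T1D, beside 25.4 ± 10.01 and 23.8 ± 10.3 in the KO groups. Per1 followed in 3 of 4 groups, with 15.4 ± 7.7 in WT Control, 25.01 ± 8.58 in WT T1D, and 20.3 ± 7.0 in KO T1D, and Arntl followed in KO Control with 14.1 ± 3.3 TPM. Group means of Arntl were between 9.26 and 15.5 TPM. Dbp and Tef lay in the middle at 8.43 to 12.4 TPM, then Nr1d2 at 5.56 to 6.99, and Clock, Per2, and Per3 at 2.75 to 4.70. Mean TPM of Hlf was between 1.45 and 1.73. Ranges of neighbours in this order overlapped almost throughout, and they were separate only between Hlf and the gene above it in WT Control, WT T1D, and KO Control and between Nr1d2 and Per2 in WT T1D.

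To determine if T1D altered the clock genes, WT T1D was compared with WT Control and KO T1D with KO Control in one 2-way edgeR quasi-likelihood model over all tested genes. Per1 was the only member to differ about 2-fold in its means, at 97.0 CPM in WT T1D and 48.1 CPM in WT Control, and the values of Arntl and Clock were lower in WT T1D. None of the 10 passed an adjusted p of 0.05 in WT, where 2.33% of all tested genes passed, and none passed in mice labelled KO, where 0% of tested genes passed. The WT share is 334 genes, which became 0 without WT Control mouse A3767 or A3907, 3 without A3903, and 1262 without WT T1D mouse A3909. At an unadjusted p under 0.05, Per1 and Clock were counted in WT (2 of 10, against 22.24% of all tested genes) and no member in KO (3.147% of all). Over all genes, 452 had an unadjusted p under 0.05 in KO. DESeq2 called none of the 10 in any of the 6 contrasts, with 2 members at an unadjusted p under 0.05 in WT and 1 in KO, and called 0 of all genes in KO. The median log2 fold change of the 10 was 0.13 in WT, with 6 values above 0, and -0.05 in KO, with 4 above 0, beside medians of -0.011 and -0.0016 over all tested genes.

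**Figure D1:**
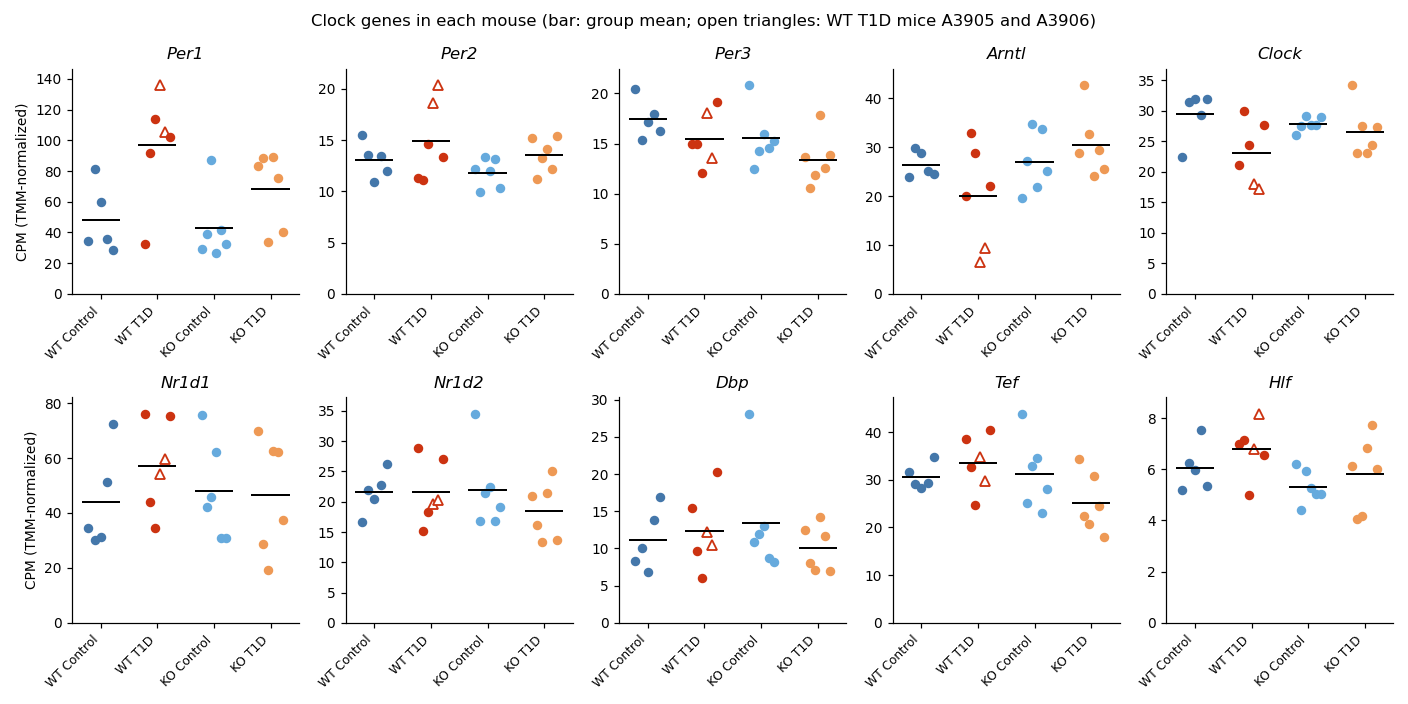
TMM-normalized CPM (y axis, linear from 0) of the 10 clock genes in each of 23 mice, by group (x axis), with a bar at the group mean and open triangles for WT T1D mice A3905 and A3906. Per1 of 5 of 6 WT T1D mice lies above every WT Control mouse, and Arntl of the mice drawn as triangles lies below all other mice.

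The PER proteins are the repressors of the loop. Per1 (chromosome 11), which is also switched on directly by glucocorticoids and by cAMP signalling, had 34.6, 81.5, 59.7, 35.9, and 28.5 CPM in WT Control. In WT T1D, Per1 ranged from 32.6 to 135.8 CPM with a median of 103.9. Values of 5 of 6 WT T1D mice were above every WT Control mouse, and mouse A1758 was at 32.6 CPM. In KO Control the lowest, median, and highest Per1 values were 26.7, 36.05, and 87.0 CPM, and in KO T1D they were 33.9, 79.4, and 89.2 CPM. Only 2 of 6 KO T1D mice were above every KO Control mouse, because KO Control mouse A3673 was at 87.0 CPM and the other 5 were at 41.5 CPM or less.

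The log2 fold change of Per1 with T1D was 1.01 (SE 0.36, adjusted p = 0.101) in WT and 0.68 (SE 0.34, adjusted p = 1) in KO. Per1 averaged over genotypes differed by 0.85 (SE 0.24, adjusted p = 0.117), where 0 of 10 members and 0.111% of all tested genes passed. The difference between the genotypes in the response of Per1 was -0.34 (SE 0.48, adjusted p = 0.826), and it was -0.0014 without KO Control mouse A3673 and -0.61 without WT Control mouse A3767. Without WT T1D mouse A1758, the Per1 value in WT was 1.21 with an adjusted p of 0.0454, which passes, in a fit where 538 of 14344 genes passed. Without A3905 and A3906 the Per1 value was 0.83 with an adjusted p of 0.434, in a fit where 0 of 14317 genes passed. Within mice A36 to A39, Per1 in WT differed by 1.17 (adjusted p = 0.0540). That subset keeps only 3 WT T1D mice, A3905 and A3906 among them, and 2211 of 14278 genes passed in WT there. Erythroid markers rose in WT T1D, with 7 of 10 passing and a median log2 fold change of 0.66. With their mean as a covariate the Per1 value was 0.40 (SE 0.43, adjusted p = 1.00), in a fit where 0 of 14364 genes passed in WT. None of the 10 markers passed without A3905 and A3906, where their median was 0.42, or without any 1 of A3767, A3903, A3904, A3907, A1787, A3905, and A3906. Of all tested genes, 0 to 29 passed in WT in those fits. The part of these markers in the Per1 result was not tested beyond the covariate.

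Per2 (chromosome 1) and Per3 (chromosome 4) varied less than Per1. Per2 had 15.6, 13.6, 11.0, 13.5, and 12.01 CPM in WT Control, and its lowest, median, and highest values were 11.1, 14.0, and 20.4 in WT T1D, 9.93, 12.1, and 13.3 in KO Control, and 11.2, 13.7, and 15.4 in KO T1D. The highest Per2 values of all 23 mice were those of A3905 (18.6 CPM) and A3906 (20.4 CPM), and the groups overlapped. Per2 differed with T1D by a log2 fold change of 0.18 (SE 0.14, adjusted p = 0.473) in WT and 0.20 (SE 0.14, adjusted p = 1) in KO, and the WT value was -0.06 without these mice. Per3 had 20.5, 15.4, 17.2, 18.0, and 16.3 CPM in WT Control, and its lowest, median, and highest values were 12.03, 14.9, and 19.1 in WT T1D, 12.4, 14.9, and 20.8 in KO Control, and 10.5, 13.1, and 17.8 in KO T1D. Values of Per3 were below every WT Control mouse in 4 of 6 WT T1D mice and below every KO Control mouse in 2 of 6 KO T1D mice, at log2 fold changes of -0.18 (SE 0.14, adjusted p = 0.471) and -0.22 (SE 0.13, adjusted p = 1). Per3 lay at 0.03 in WT within mice A36 to A39. It passed on log2 (TPM + 1) at -0.36 (limma, adjusted p = 0.0309), where the median of all genes was -0.24 and 5154 of 14364 genes passed.

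Arntl and Clock encode the activators. Arntl (chromosome 7) had 23.99, 29.8, 28.8, 25.2, and 24.5 CPM in WT Control, and its lowest, median, and highest values were 6.62, 21.1, and 32.8 CPM in WT T1D, 19.6, 26.2, and 34.8 in KO Control, and 24.1, 29.2, and 42.7 in KO T1D. Mice A3905 at 6.62 CPM and A3906 at 9.37 CPM were below every other mouse, while their 4 group mates had 20.1, 22.1, 28.7, and 32.8 CPM. Arntl differed with T1D by -0.40 (SE 0.27, adjusted p = 0.394) in WT and 0.17 (SE 0.26, adjusted p = 1) in KO. Without A3905 and A3906, the WT value of Arntl was -0.03 (SE 0.18, adjusted p = 0.977). Within mice A36 to A39, where only 3 WT T1D mice remain and 2 of them are A3905 and A3906, Arntl passed in WT at -1.08 (SE 0.30, adjusted p = 0.0244). In that fit 2211 of 14278 genes passed in WT.

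Clock (chromosome 5) had 22.5, 31.4, 31.98, 29.4, and 31.9 CPM in WT Control, and its lowest, median, and highest values were 17.1, 22.8, and 29.9 CPM in WT T1D, 26.1, 27.7, and 29.1 in KO Control, and 23.1, 25.8, and 34.2 in KO T1D. The lowest Clock values were again those of A3906 (17.1 CPM) and A3905 (18.0 CPM). Clock differed by -0.35 (SE 0.13, adjusted p = 0.118) in WT and -0.07 (SE 0.12, adjusted p = 1) in KO. The Clock value in WT passed without WT T1D mouse A1764, at -0.44 (adjusted p = 0.0418), and within mice A36 to A39, at -0.56 (adjusted p = 0.0190). In those fits, 963 of 14328 and 2211 of 14278 genes passed in WT. Without A3905 and A3906 the Clock value was -0.19 (SE 0.12, adjusted p = 0.577), and with erythroid markers as a covariate -0.06 (SE 0.15, adjusted p = 1.00). Of all tested genes, 0 passed in WT in either of these fits.

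Nr1d1 and Nr1d2 encode the REV-ERB receptors, nuclear receptors for heme that repress Arntl. Nr1d1 (chromosome 11) had 34.7, 30.1, 31.3, 51.4, and 72.3 CPM in WT Control, and its lowest, median, and highest values were 34.5, 57.0, and 76.0 in WT T1D, 30.8, 43.9, and 75.7 in KO Control, and 19.1, 49.8, and 70.0 in KO T1D. Each group thus held mice with low and high Nr1d1, and the groups overlapped. The log2 fold change of Nr1d1 was 0.38 (SE 0.32, adjusted p = 0.501) in WT and -0.04 (SE 0.30, adjusted p = 1) in KO. Nr1d2 (chromosome 14) had 16.6, 21.9, 20.4, 22.8, and 26.3 CPM in WT Control, and its lowest, median, and highest values were 15.2, 19.9, and 28.8 in WT T1D, 16.9, 20.3, and 34.5 in KO Control, and 13.3, 18.5, and 25.00 in KO T1D. For Nr1d2 the values were -0.01 (SE 0.20, adjusted p = 0.990) in WT and -0.25 (SE 0.19, adjusted p = 1) in KO.

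Dbp, Tef, and Hlf encode the PAR bZIP output factors. Dbp (chromosome 7) had 8.32, 10.1, 6.78, 13.9, and 16.97 CPM in WT Control, and its lowest, median, and highest values were 6.04, 11.3, and 20.2 in WT T1D, 8.16, 11.4, and 28.1 in KO Control, and 6.91, 9.87, and 14.3 in KO T1D. KO Control mouse A3670 had the highest Dbp, Nr1d2, Tef, and Per3 of all 23 mice. Dbp differed with T1D by 0.14 (SE 0.32, adjusted p = 0.842) in WT and -0.42 (SE 0.31, adjusted p = 1) in KO, and the KO value was -0.07 without mouse A3670. Tef (chromosome 15) had 31.7, 29.2, 28.2, 29.2, and 34.7 CPM in WT Control, and its lowest, median, and highest values were 24.8, 33.7, and 40.5 in WT T1D, 23.1, 30.5, and 43.7 in KO Control, and 18.1, 23.4, and 34.3 in KO T1D. Tef differed by 0.13 (SE 0.16, adjusted p = 0.682) in WT and -0.31 (SE 0.16, adjusted p = 1) in KO, and the difference between these responses was -0.44 (SE 0.23, adjusted p = 0.499). Hlf (chromosome 11) ranged from 4.06 to 8.15 CPM over all mice and differed by 0.16 (SE 0.16, adjusted p = 0.599) in WT and 0.13 (SE 0.16, adjusted p = 1) in KO.

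**Figure D2:**
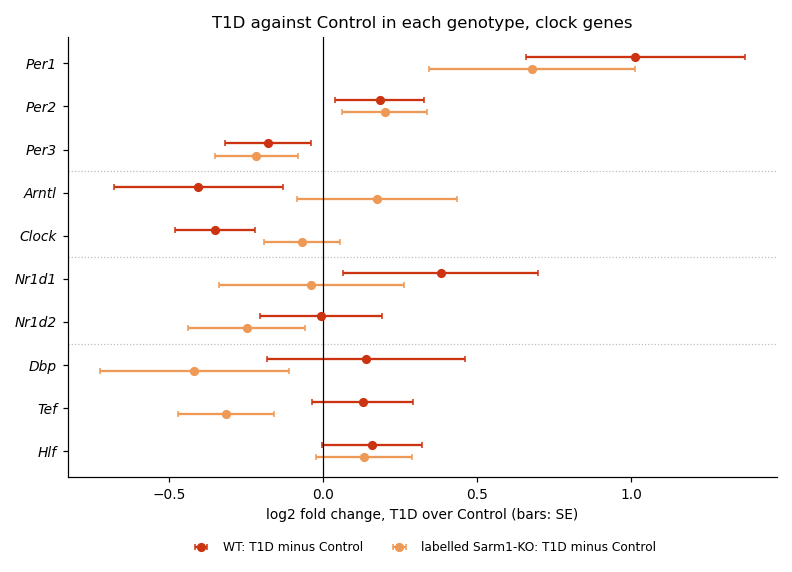
Log2 fold change of T1D over Control (x axis) for each clock gene (y axis) in WT mice and in mice labelled Sarm1-KO, from the edgeR model, with bars of 1 SE and dotted lines between the PER, activator, REV-ERB, and PAR bZIP groups. Per1 has the highest values, at 1.01 and 0.68, and Arntl lies at -0.40 in WT and 0.17 in KO.

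The test of the difference in response between genotypes passed for 0 of 10 members and for 0% of all tested genes, with no member and 1467 genes at an unadjusted p under 0.05, and DESeq2 also called none. Dbp differed between the responses by -0.56 (SE 0.44, adjusted p = 0.655) and Arntl by 0.58 (SE 0.38, adjusted p = 0.583). A difference in the clock genes' response to T1D between genotypes was therefore not detected with these mice.

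Next, genotypes were compared within each condition. In Control mice, 0 of 10 members passed beside 0.0278% of all tested genes, the largest difference being that of Dbp at 0.26 (SE 0.32, adjusted p = 0.999), which was -0.099 without KO Control mouse A3670 and 0.46 without WT Control mouse A3907. In T1D mice, 0 of 10 passed beside 0.0905% of all tested genes, and Arntl and Tef had an unadjusted p under 0.05 (2 of 10, against 17.08% of all tested genes). Arntl was higher in KO T1D than in WT T1D by 0.61 (SE 0.26, adjusted p = 0.247), and 1 of 6 KO T1D mice was above every WT T1D mouse. Without A3905 and A3906 the difference in Arntl was 0.23 (SE 0.17, adjusted p = 0.822). Within mice A36 to A39 the difference in Arntl passed at 1.26 (SE 0.28, adjusted p = 0.0156), where 1540 of 14278 genes passed. Tef was lower in KO T1D, at -0.41 (SE 0.16, adjusted p = 0.206), and 4 of 6 KO T1D mice were below every WT T1D mouse. The Tef value was -0.44 without A3905 and A3906 (adjusted p = 0.682). All 10 skeletal muscle markers had lower values in the same comparison, with a median log2 fold change of -1.09 and none passing, and their part in the Tef result was not tested. Per1, Nr1d1, and Hlf lie on the same chromosome as Sarm1, and they differed between genotypes in Control mice by -0.17 (SE 0.35), 0.12 (SE 0.32), and -0.19 (SE 0.16).

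Within groups, the clock genes spread more between mice than the median gene, 4 of them clearly and 4 only slightly. The median SD within groups was 0.31 on the log2 (CPM + 0.5) scale for the 10 members and 0.21 for all tested genes. Per1 (0.65), Nr1d1 (0.57), Dbp (0.54), and Arntl (0.51) had the highest SDs, above those of 95.6%, 94.0%, 92.9%, and 91.6% of tested genes. The median SD of genes with a mean within 1.5-fold of theirs was 0.15 for Per1, 0.15 for Nr1d1, 0.21 for Dbp, and 0.17 for Arntl. Clock (0.22), Per3 (0.23), Per2 (0.24), and Hlf (0.24) lay near the middle of all genes, with Tef (0.28) and Nr1d2 (0.34) above them. The median SD of genes of like level was 0.169 for Clock, 0.197 for Per3, 0.205 for Per2, and 0.275 for Hlf, so Hlf lay below its own. From the lowest to the highest mouse, CPM differed 6.44-fold for Arntl, 5.08-fold for Per1, 4.64-fold for Dbp, 3.97-fold for Nr1d1, and 2.00-fold for Clock. The values of Arntl and Clock rest on A3905 and A3906, and over the other 21 mice CPM differed 2.18-fold for Arntl, from 19.6 CPM upward, and 1.62-fold for Clock. The SDs above include A3905 and A3906.

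These differences between mice were shared among members. Correlations of log2 (CPM + 0.5) were computed over 23 mice for all 45 pairs, with p-values from 100000 permutations, the smallest they can give being 1e-05, adjusted over the 45. An adjusted p under 0.05 was reached by 12 pairs. The share among pairs of other tested genes was not computed, so the count cannot be read as particular to clock genes. Among the 12 was Per2 with Clock, at r = -0.53 over 23 mice and -0.05 without A3905 and A3906. Nr1d1, Nr1d2, Dbp, and Tef formed 6 pairs that all passed, with Pearson's r from 0.73 to 0.84. Pearson's r of Nr1d1 with Dbp was 0.83 (adjusted permutation p = 0.00015) and Spearman's rho was 0.87 (adjusted p = 0.00015). Without the 2 mice with the most extreme Nr1d1, r was 0.84, on deviations from the group means it was 0.86, and within mice A36 to A39 it was 0.83. Nr1d2 and Dbp correlated at r = 0.84 and rho = 0.82 (adjusted permutation p = 0.00015 for both), with r = 0.76 without the 2 mice farthest in Nr1d2. Dbp and Tef correlated at r = 0.79 (adjusted permutation p = 0.00018) and rho = 0.80 (0.00015), with r = 0.70 without the 2 mice farthest in Dbp.

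Per3 joined these genes in part. Its r was 0.68 with Tef (rho 0.67, adjusted permutation p = 0.00193 for r and 0.0045 for rho) and 0.56 with Dbp (rho 0.52, adjusted p = 0.0236 and 0.0457). Without the 2 mice farthest in Per3, r was 0.58 with Tef and 0.41 with Dbp (adjusted permutation p = 0.178 for Dbp). Hlf correlated with Nr1d1 at r = 0.62 (rho 0.58, adjusted permutation p = 0.00825 and 0.0167), and without the 2 mice farthest in Nr1d1 r was 0.51 (adjusted permutation p = 0.0648). Per1 values lay on both sides of a gap between 41.5 and 59.7 CPM, so no pooled correlation with another member is given for it.

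**Figure D3:**
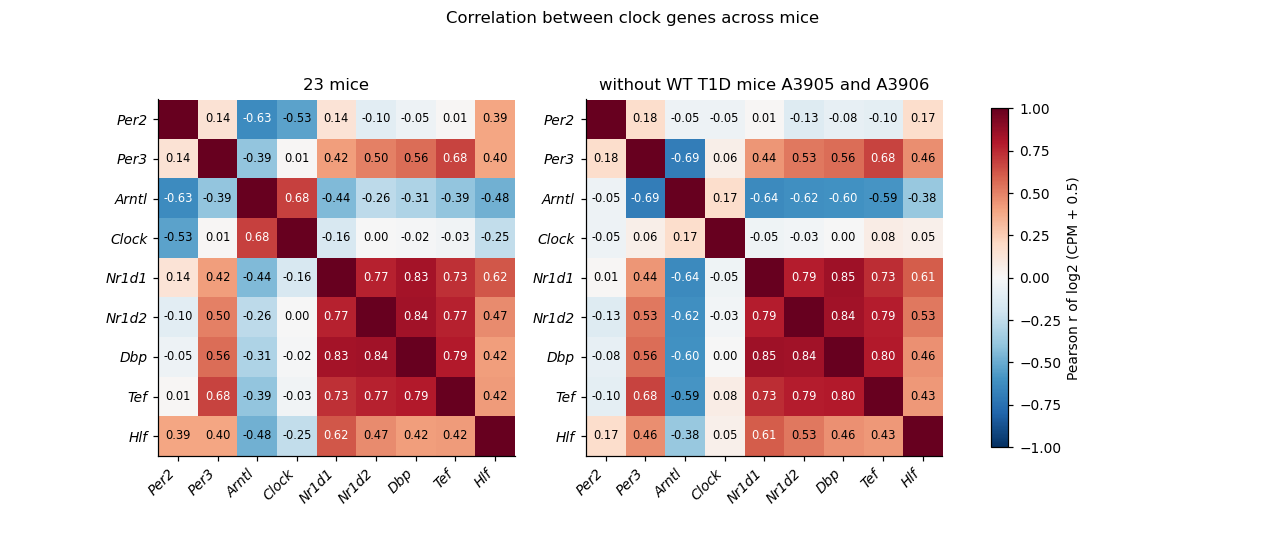
Pearson's r of log2 (CPM + 0.5) between 9 clock genes (both axes; Per1 left out), over 23 mice (left) and without WT T1D mice A3905 and A3906 (right), with color from -1 to 1. Nr1d1, Nr1d2, Dbp, and Tef correlate at 0.73 or more in both panels, and Arntl has values from -0.59 to -0.69 with these genes and Per3 only in the right panel.

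Arntl behaved differently depending on mice A3905 and A3906. Over 23 mice its r was 0.68 with Clock (rho 0.44, adjusted permutation p = 0.00658 for r and 0.0907 for rho) and -0.63 with Per2 (rho -0.28, adjusted p = 0.0116 and 0.329). Both relations rested on A3905 and A3906, the farthest mice in Arntl and in Per2, and without them r was 0.17 and -0.05. The r of Arntl with Nr1d1, Nr1d2, Dbp, Tef, and Per3 was larger in size without these mice, while r with Hlf was -0.48 over 23 mice and -0.38 without them. Pearson's r of Arntl with Nr1d1 was -0.44 over 23 mice (adjusted permutation p = 0.0845) with a rho of -0.62 (adjusted p = 0.0112), and without A3905 and A3906 r was -0.64 (adjusted p = 0.0102). Without the same mice, r of Arntl was -0.69 with Per3 (adjusted permutation p = 0.0036), -0.62 with Nr1d2 (0.0130), -0.60 with Dbp (0.0147), and -0.59 with Tef (0.0158). In these 21 mice, CPM of Arntl thus ran opposite to CPM of these 5 genes, though A3905 and A3906 were left out after the data were seen. On deviations from the group means over all 23 mice, r of Arntl with the 5 genes was -0.44 to -0.22. None of those passed, the lowest adjusted permutation p being 0.163. On log2 (TPM + 1) over all 23 mice, r of Arntl was -0.23 with Nr1d1 and 0.10 with Per3.

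**Figure D4:**
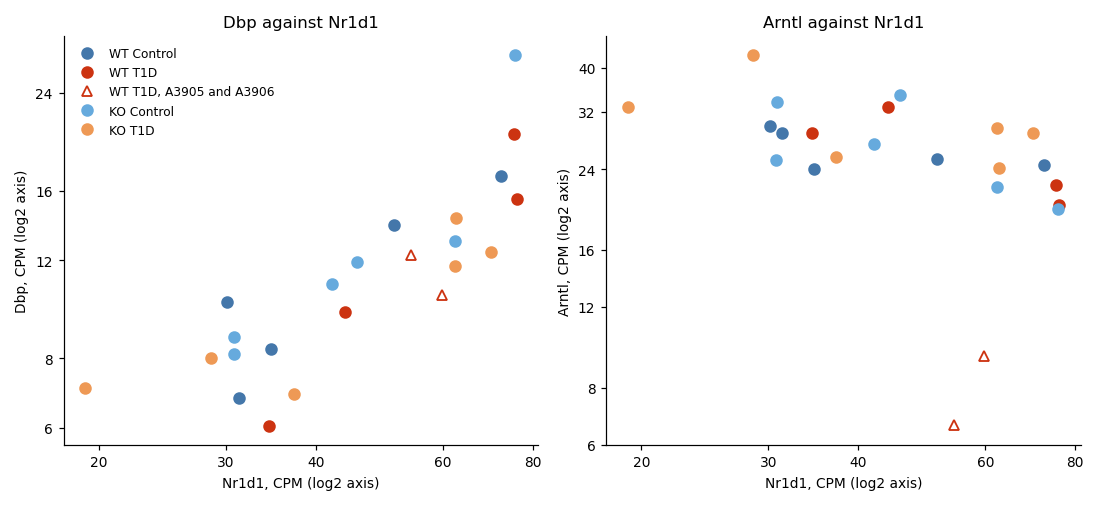
CPM of Dbp (left) and Arntl (right) on the y axis against CPM of Nr1d1 on the x axis, all on log2 axes, with 1 point per mouse, colored by group, and open triangles for WT T1D mice A3905 and A3906. Dbp rises with Nr1d1 over the 23 mice (r = 0.83), and Arntl falls with Nr1d1 apart from the mice drawn as triangles, which lie below the rest.

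Cell type markers were set beside the members in 60 relations of 10 members with 6 marker lists. The mean of the B cell markers, among which Cd79a and Cd79b were most abundant, correlated with Arntl at r = 0.86 (adjusted permutation p = 0.0044), but at rho = 0.47 (adjusted p = 0.215), and r was 0.37 without A3905 and A3906. Arntl also passed with osteoblast and osteocyte (r = 0.80), neutrophil (-0.72), adipocyte (-0.71), and erythroid markers (-0.56). Without A3905 and A3906 these values were -0.09, -0.12, -0.11, and 0.16. Per2 passed with the same lists and with B cell markers, at r of 0.59 to 0.71 in size, and at most 0.19 in size without A3905 and A3906. Osteoblast and osteocyte markers correlated with Clock at r = 0.80 (adjusted permutation p = 0.0036) and rho = 0.64 (adjusted p = 0.081), and r was 0.50 without these mice. Clock also passed with erythroid (r = -0.72), neutrophil (-0.64), and adipocyte markers (-0.53), and without these mice r was -0.43, -0.21, and 0.07. Skeletal muscle markers, led by Acta1, correlated with Tef at r = 0.60 (adjusted permutation p = 0.0132; rho 0.59, adjusted p = 0.081) and r was 0.45 without the 2 mice farthest in these markers. Such markers also correlated with Nr1d1 at r = 0.53 (adjusted permutation p = 0.0337; 0.26 without the same 2 mice) and with Hlf at r = 0.50 (adjusted permutation p = 0.0446; 0.20 without them). Per1, whose values lay on both sides of a gap, passed with erythroid markers (r = 0.60, rho 0.59). It also passed with osteoblast and osteocyte markers (r = -0.52, rho -0.53), with an adjusted permutation p of 0.0132 for either r. Without A3905 and A3906 these r values were 0.46 and -0.32, and on deviations from the group means 0.38 and -0.31, none of which passed. Dbp had no r beyond 0.25 in size with any of the 6 lists over 23 mice, and without A3905 and A3906 its r was -0.42 with neutrophil, 0.31 with osteoblast and osteocyte, and -0.30 with B cell markers. No rho passed an adjusted p of 0.05 in the 60 relations, and the part of cell makeup in the members' values was not tested beyond these relations and the covariates above.

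The genes most like Arntl among 13295 compared were Rag2 (r = 0.92), Igll1 (0.92), Cplx2 (0.92), Slamf7 (0.91), and Ppp1r16b (0.90), across 23 mice. Rag2 encodes part of the recombinase of developing lymphocytes, and Igll1 part of the pre-B cell receptor. Without A3905 and A3906 these values were 0.58, 0.59, 0.63, 0.50, and 0.60. Least like Arntl were Asprv1 (-0.87), Scrg1 (-0.87), Slc6a6 (-0.86), Lgals3 (-0.85), and Il18rap (-0.85), and without the same mice they ranged from -0.51 to 0.05. For Dbp the highest were Tns3 (0.67), Ankrd29 (0.62), Insyn1 (0.61), Arf2 (0.61), and Zfp960 (0.60), all below its values with Nr1d1, Nr1d2, and Tef. The lowest for Dbp were Birc3 (-0.73), an inhibitor of apoptosis, Rad9b (-0.73), Olfr1033 (-0.66), Mat2a (-0.62), and Eif4ebp3 (-0.61), and without A3905 and A3906 they ranged from -0.66 to -0.77.

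The rest of the loop was described with 17 further genes, of which 15 were tested and Rorb and Fbxl21 were not. With T1D in WT, 1 of 15 passed beside 2.33% of all tested genes, 3 had an unadjusted p under 0.05 beside 22.24% of all, and the median log2 fold change was 0.09. In KO none passed and the median was 0.0023. Btrc, which encodes a ubiquitin ligase subunit that marks PER proteins for degradation, rose in WT T1D by 0.37 (SE 0.09, adjusted p = 0.0451). Btrc had 60.9, 55.5, 52.3, 44.7, and 47.2 CPM in WT Control, and all 6 WT T1D mice, at 64.0 to 75.1 CPM, were above them. In mice labelled KO, Btrc differed by -0.06 (SE 0.09, adjusted p = 1), and the difference between the responses was -0.44 (SE 0.13, adjusted p = 0.479). Btrc no longer passed with erythroid markers as a covariate, at 0.11 (adjusted p = 1.00), on log2 (TPM + 1), at 0.08 (limma, adjusted p = 0.502), where the median of all genes was -0.24, or without A3905 and A3906, at 0.34 (adjusted p = 0.289). Of all tested genes, 0 passed in WT with that covariate, 0 passed without these mice, and 5154 passed on log2 (TPM + 1). The Btrc call was also lost with only the groups compared (adjusted p = 0.171), where 0 of 14002 genes passed. It was lost too for 15 of the 23 mice left out in turn, at log2 fold changes of 0.32 to 0.40. The highest adjusted p was 0.126 without A3906, where 11 of 14341 genes passed. Without WT Control mouse A3907 it was 0.118, where 0 of 14332 genes passed.

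Npas2, a relative of Clock that can take its place beside BMAL1, had 9.75, 13.3, 13.0, 11.1, and 10.2 CPM in WT Control and 2.60 to 13.5 CPM in WT T1D, where 5 of 6 mice were below every WT Control mouse. Npas2 differed by -0.73 (SE 0.28, adjusted p = 0.134) in WT and 0.40 (SE 0.27, adjusted p = 1) in KO, a difference between responses of 1.13 (SE 0.39, adjusted p = 0.479). Npas2 was lowest in A3906 (2.60 CPM) and A3905 (4.08 CPM), as Arntl and Clock were, and without them its WT value was -0.40 (adjusted p = 0.560). Ciart, a repressor of CLOCK and BMAL1, differed by 0.55 (SE 0.36, adjusted p = 0.377) in WT and had few reads, with group means between 1.00 and 1.47 CPM.

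Of 6 clock output genes, none passed in either genotype, beside 2.33% of all tested genes in WT and 0% in KO. In WT, 2 of the 6 had an unadjusted p under 0.05, beside 22.24% of all tested genes. The median log2 fold change was 0.15 in WT and -0.01 in KO. Tsc22d3, which is induced by glucocorticoids, differed by 0.64 (SE 0.24, adjusted p = 0.127) in WT and 0.27 (SE 0.23, adjusted p = 1) in KO. Tsc22d3 was at 46.8 CPM in WT T1D mouse A1758 and at 97.1 CPM in KO Control mouse A3673, the mice with the lowest and the highest Per1 of those groups. Usp2, a deubiquitinase that acts on clock proteins, differed by 0.37 (SE 0.32, adjusted p = 0.521) in WT, and Wee1, a cell cycle kinase, by 0.19 (SE 0.08, adjusted p = 0.150).

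**Figure D5:**
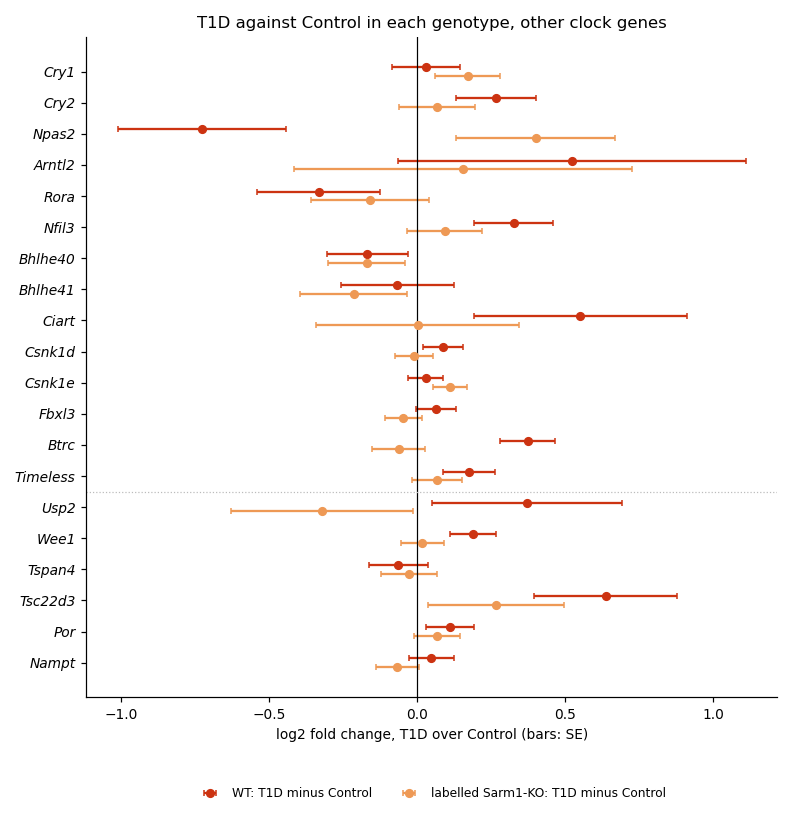
Log2 fold change of T1D over Control (x axis) for 14 other clock loop genes and, below the dotted line, 6 clock output genes (y axis), in WT mice and in mice labelled Sarm1-KO, with bars of 1 SE. Btrc at 0.37 in WT is the one value that passed, and Npas2 lies at -0.73 in WT and 0.40 in KO.

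Since Per1 responds to glucocorticoids and to immediate early signals, these lists were set beside it. Of 7 glucocorticoid-responsive genes other than Per1, none passed in WT, 5 had an unadjusted p under 0.05 (4 of them higher) beside 22.24% of all tested genes, and the median log2 fold change was 0.49 in WT and 0.16 in KO. The summed level of the list, Per1 included, was 281 to 443 CPM in WT Control and 327 to 571 CPM in WT T1D. It was 296 to 442 CPM in KO Control and 284 to 436 CPM in KO T1D. Mice A3905 and A3906 had the highest sums, at 571 and 567 CPM, and the other 21 mice reached 481 CPM. Per1 alone had means of 48.05 CPM in WT Control and 96.96 CPM in WT T1D. Cdkn1a and Tsc22d3 were the most abundant genes of the list by their mean over mice, at 104 and 74.99 CPM. From WT Control to WT T1D, mean Cdkn1a fell from 116.9 to 87.65 CPM and mean Tsc22d3 rose from 64.49 to 100.2 CPM. Of 10 immediate early genes, led by Junb and Dusp1, none passed, and the median was 0.0019 in WT and 0.044 in KO. The part of either response in the Per1 values was not tested.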

How the data were processed

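Bone RNA of 23 female mice, taken from femur and tibia after removal of marrow, had been sequenced, and mice were grouped by the labels, which name a mouse for each library. The authors deposited expected counts per gene, estimated with RSEM and rounded to whole numbers without normalization, and TPM values from the sequencing provider. Reads came from oligo dT libraries, and the submitters' notes name HISAT, Bowtie2, and GRCm38.p6.

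Total counts were 16938101 to 20135592 per mouse. Among the 55 within-group pairs of libraries, chi-square per gene was 10.9 to 184, so no library was a copy of another of its group. Tested genes had 10 or more counts in 5 or more mice. Tests were run in R 4.3.3 with edgeR 4.0.16 (TMM, quasi-likelihood, 4 group means, 6 contrasts, Benjamini-Hochberg over all tested genes, threshold 0.05). DESeq2 1.42.0 and limma 3.58.1 on log2 (TPM + 1) were alternatives. TPM fold changes are on that scale, which understates those of low genes. The model was tested on simulated counts with 200 changed genes. Correlations used Python 3.11.15 with numpy 2.4.6, pandas 2.3.3, and matplotlib 3.10.9.

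The members and gene lists were chosen with earlier results of these data known. Named genes are the 10 members, in the other clock lists every gene that passed in any contrast and the 3 with the largest change in WT T1D, the 5 most and least like Arntl and Dbp with a mean of at least 1 CPM, Sarm1, and the 2 most abundant genes of a marker list set beside a result. One gene that this rule names is not reported here.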

Additional observations from a re-analysis of the deposited data

Results flagged for a closer look

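In 40 groups of the members' CPM values, 1 mouse lay far from the rest of its group in 4, by Dixon's limits, which flag about 5% of groups by chance. Per1 in KO Control was 87.0 CPM in mouse A3673, with the next value at 41.5. Clock in WT Control was 22.5 CPM in mouse A1757, the only WT Control mouse of the A17 series, below the next value of 29.4. In KO Control mouse A3670, Nr1d2 was 34.5 CPM and Dbp 28.1 CPM, with the next values at 22.4 and 12.98. Leaving out A3673 gave a log2 fold change of Per1 with T1D in KO of 1.01 in place of 0.68, and leaving out A3670 gave -0.07 in place of -0.42 for Dbp and -0.08 in place of -0.25 for Nr1d2.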

How the results depend on the processing

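Of 2080 log2 fold changes of the members recomputed under alternatives, 15 passed the threshold only there and 13 changed sign with a value beyond 1 SE in either fit, none of these when 1 mouse was left out. A further 79 changed sign within 1 SE of 0 in both fits. With T1D in WT, 0 members passed, against 3 on log2 (TPM + 1), 3 on log2 (TPM + 0.1) (Per3, Clock, and Arntl in both), 3 within mice A36 to A39 (Per2, Clock, and Arntl), and 0 to 1 when each mouse was left out. The 1 was Clock without A1764, where 963 of 14328 genes passed, and Per1 without A1758, where 538 of 14344 passed. On the TPM scales, the median of all genes in WT T1D shifted by -0.24 and -0.29, and 83 and 80 genes rose while 5071 and 5093 fell. DESeq2 called 1002 of all genes in place of 334 with T1D in WT, 239 in place of 13 for genotype in T1D, and 249 in place of 16 for T1D averaged over genotypes, and none of the members. For genotype in T1D, 1 member (Arntl) passed within A36 to A39 and 1 with the ID series as a covariate, and averaged over genotypes, 2 members (Per2 and Per1) passed within A36 to A39. Within A36 to A39, 2211, 1540, and 536 of 14278 genes passed in these 3 comparisons, and 664 of 14364 passed for genotype in T1D with the ID series. The A36 to A39 fits keep only 3 WT T1D mice, A3905 and A3906 among them. These changes were reversed: in WT T1D, Per2 on log2 (TPM + 1) (-0.10) and (TPM + 0.1) (-0.13), with erythroid markers as a covariate (-0.19), and without A3905 and A3906 (-0.060), Per3 within A36 to A39 (0.031), and Tef on the TPM scales (-0.16 and -0.18). In the difference between genotypes, Per2 was -0.30 within A36 to A39 and Per3 0.19 and 0.24 on the TPM scales. Averaged over genotypes, Hlf was -0.026 and -0.041 on the TPM scales and Per2 -0.0085 with the erythroid covariate. The cause was not tested. The 12 correlated pairs were 9 to 16 under alternatives. Leaving out A3905 and A3906 and the B cell covariate were chosen after seeing the data. No paired analysis was possible because the groups share no mouse numbers. Low genes such as Ciart and Sarm1 are limited by depth, and each value rests on 5 or 6 mice a group, at an hour that is not given in the sources used here.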
